A study of Caenorhabditis elegans with 2 samples.

Results

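Tubulin genes were examined for sites of MADF-8, a protein with a MADF domain. Such domains bind DNA and resemble those of Myb proteins. The set comprised 10 genes chosen by name. The isotypes used broadly in the germline, the embryo and many tissues were tba-1, tba-2 and tba-4 for alpha-tubulin and tbb-1 and tbb-2 for beta-tubulin. The neuronal isotypes were tba-5, tbb-4, mec-7 and mec-12, and the tenth gene was tbb-6. They are 10 of the 19973 protein-coding genes in the annotation. A gene was counted as having a site when the summit of a site lay from 1000 bp upstream of its start to its end.

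The data were chromatin immunoprecipitation with sequencing (ChIP-seq) from 2 biological replicates of 1 group. Whole nematodes (Caenorhabditis elegans, strain RW12322) were used as young adults of 64 hours, after a start from bleached cultures whose L1 larvae were starved. In these worms a CRISPR insertion at madf-8 fuses the protein to TY1::EGFP::3xFLAG, and the chromatin was sheared by sonication and recovered with an antibody against GFP. The group has no untagged or wild-type counterpart among the samples, and the control file that the authors used for their lists was not analysed here. The files list sites without reads, and library depth is unknown.

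Alpha- and beta-tubulin form the dimers from which microtubules are built. Worms carry several genes for each, called isotypes. The products of tba-1, tba-2, tbb-1 and tbb-2 make up the spindles of oocytes and early embryos, and tba-4 is also expressed in many tissues. MEC-12 (alpha) and MEC-7 (beta) form the large microtubules of the touch receptor neurons, and TBA-5 and TBB-4 serve the cilia of sensory neurons. The gene tbb-6 encodes a divergent beta-tubulin that is induced by mitochondrial stress.

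The strongest site at a tubulin gene lay upstream of tbb-1, a beta-tubulin gene of germline and embryo. Its summit was 257 bp from the start of tbb-1 and 121 bp from that of rib-2, on the other strand. The closely related gene tbb-2, also of germline and embryo, had no site at the same distance from its start. The sequences at these places, both 258 bp, are shown with those of ben-1, the beta-tubulin gene known for sensitivity to benzimidazole drugs, whose site spans 276 bp. They are from assembly ce11 (WBcel235), 5′ to 3′ on the minus strand, which is the strand of all 3 genes. Capitals mark the summit base and 10 bases on either side, or for tbb-2 the bases at the same distance from the start. The tbb-1 site is chrIII:10742556-10742813, the tbb-2 stretch chrIII:4017751-4018008 and the ben-1 site chrIII:3541885-3542160.
tbb-1 site: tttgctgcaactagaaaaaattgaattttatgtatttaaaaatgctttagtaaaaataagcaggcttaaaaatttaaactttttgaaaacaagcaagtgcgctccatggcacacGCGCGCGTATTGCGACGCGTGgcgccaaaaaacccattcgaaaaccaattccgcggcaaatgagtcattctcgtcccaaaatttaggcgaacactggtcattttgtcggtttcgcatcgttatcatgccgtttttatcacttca
tbb-2 same distance: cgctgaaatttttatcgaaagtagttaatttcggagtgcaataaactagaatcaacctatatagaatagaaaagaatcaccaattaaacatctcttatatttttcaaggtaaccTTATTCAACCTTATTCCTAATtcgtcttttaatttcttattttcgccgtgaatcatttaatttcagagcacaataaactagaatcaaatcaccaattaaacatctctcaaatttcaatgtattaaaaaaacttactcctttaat
ben-1 site: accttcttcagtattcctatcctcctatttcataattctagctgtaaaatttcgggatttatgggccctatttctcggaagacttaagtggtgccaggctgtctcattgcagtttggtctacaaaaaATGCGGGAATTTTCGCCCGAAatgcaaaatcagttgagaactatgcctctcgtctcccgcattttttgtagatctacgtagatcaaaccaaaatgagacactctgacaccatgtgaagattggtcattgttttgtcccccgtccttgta

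The tbb-1 site is rich in CG pairs around its summit. In the 101 bp centred on the summit there were 12 CG pairs and 50.5% G or C, against a median of 6 CG pairs and 43.6% over all 1972 sites of the set, and 3.35% of sites held more CG pairs. The stretch of tbb-2 at that distance held 3 CG pairs and 26.7% G or C in 101 bp. Promoter windows of 101 bp, centred 181 bp upstream of the start, were taken at 17954 protein-coding genes with no site, tubulin genes left out. Their medians were 3 CG pairs and 33.7%. The coding sequences of tbb-1 and tbb-2 are alike, with 85% of bases identical over the longer of them. Around the ben-1 summit there were 5 CG pairs and 48.5% G or C, and 62.6% of sites held more CG pairs. The site of tbg-1, the gamma-tubulin gene, held 9 CG pairs and 38.6% G or C around its summit. There, 16.6% of sites held more CG pairs.

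Of the 10 tubulin genes, 2 (20%) had a site in the set that the authors made from both replicates, against 10% of all protein-coding genes (2007 of 19973). Both were broadly used isotypes, tba-2 and tbb-1, so that 2 of 5 broadly used isotypes (40%) and 0 of 4 neuronal isotypes had a site. The same 2 genes had a site in the set of replicate 1, where 7.36% of all genes did, and in the set of replicate 2, where 8.72% did. With 5 and 4 genes these are counts and no test was made of their difference. In whole animals, a site used in few cells and a site used in none cannot be told apart.

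**Figure D1:**
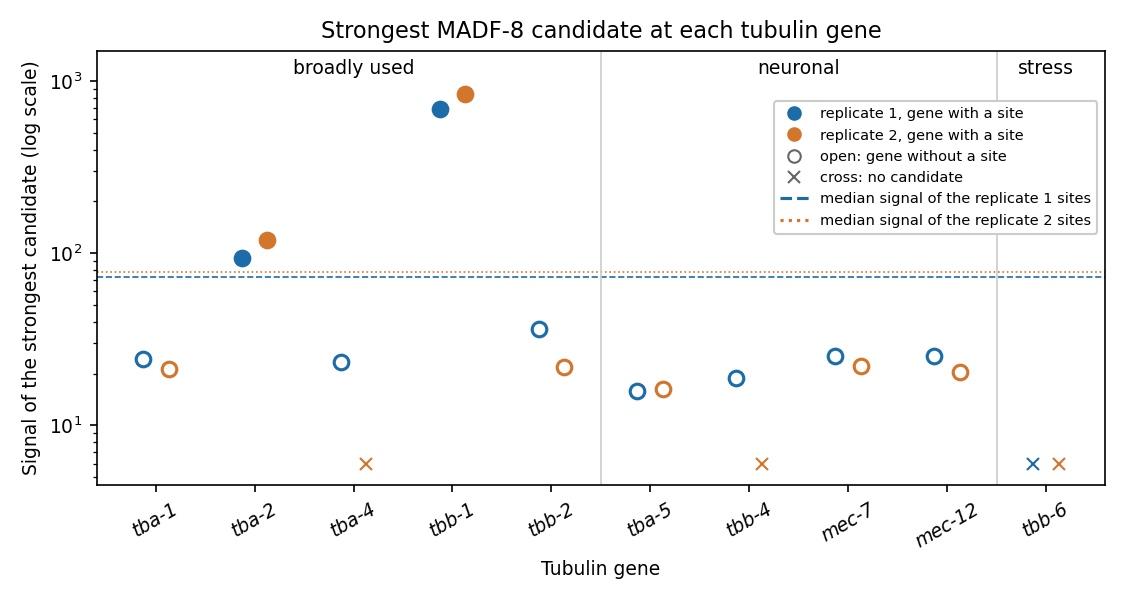
Signal of the strongest candidate in each ranked list (log scale) at the 10 tubulin genes, for replicate 1 and replicate 2, with filled points for genes that have a site and crosses, placed at an arbitrary height, where a list holds no candidate. tbb-1 and tba-2 lie above the median signal of the replicates' sites, 72.4 in replicate 1 and 78.1 in replicate 2, and the other genes lie below both medians.

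The gene tbb-1 (WBGene00006536, III, 10740868 to 10742432, minus strand) had a site of 258 bp with its summit 257 bp upstream of the start, in intergenic sequence. Its signal, a value the authors give to each site, was 1523.6, rank 17 among 1972 sites. In replicate 1 the site had a signal of 689 and ranked 16 of 1347, and in replicate 2 it had a signal of 845 and ranked 17 of 1608. The summits of the replicates were 2 bp apart. Only 0.811% of sites were stronger in the set of both replicates, 1.11% in that of replicate 1 and 0.995% in that of replicate 2. The site thus stands near the top of each set. The site lies between divergent genes. The start of rib-2, which encodes an enzyme of heparan sulfate synthesis and runs on the plus strand, is nearer to the summit, at 121 bp.

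The gene tba-2 (WBGene00006529, I, 12964674 to 12966795, minus strand), an alpha-tubulin gene of germline and embryo, had a site of 96 bp at 12966886 to 12966981. Its summit lay 163 bp upstream of the start, in intergenic sequence, and its signal was 206.6, with 25% of sites stronger (rank 494). In replicate 1 the site was 250 bp wide with a signal of 94.2 and ranked 475 of 1347. In replicate 2 it was 66 bp wide with a signal of 119.6 and ranked 468 of 1608. The summits were 9 bp apart. No other protein-coding gene has a start nearer to this summit, and the next, pbs-2 for a subunit of the proteasome, starts 1322 bp from it on the same strand. For comparison, the strongest sites of the 2007 genes with a site had a median signal of 133.4 and a median distance of 195 bp upstream, and 77.4% of them lay upstream of the start.

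**Figure D2:**
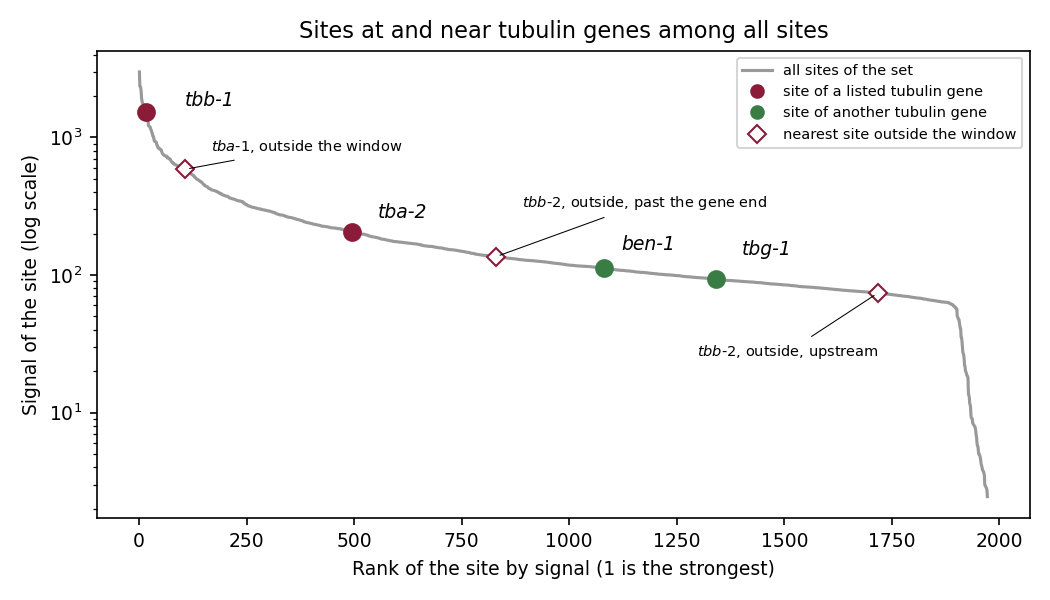
Signal of each of the 1972 sites (log scale) against its rank, with the sites of tubulin genes as filled points and the nearest sites outside the windows of tba-1 and tbb-2 as open diamonds. The tbb-1 site is at rank 17 and the tba-2 site at rank 494, while the sites of ben-1 and tbg-1 are at ranks 1082 and 1341.

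The other 3 broadly used isotypes had no site in their windows, but sites lay just outside those of tba-1 and tbb-2. At tba-1 (WBGene00006528, I, 9785781 to 9787624, minus strand), whose coding sequence is 86.6% identical to that of tba-2, the nearest summit lay 1075 bp upstream. That site (9788554 to 9788810) had a signal of 586.8, rank 108, and each replicate's set held it. It lay 26 bp upstream of cox-5B, which encodes a subunit of cytochrome c oxidase and runs on the other strand. At tbb-2 (WBGene00006537, III, 4015910 to 4017627, minus strand) a site 1581 bp upstream had a signal of 73.7, rank 1717, and was in neither replicate's set, and its nearest start was that of snpc-3.4, at 829 bp. A second site, with a signal of 135.9, rank 830, lay 138 bp beyond the end of tbb-2 in an exon of C36E8.4, which runs towards it from the other strand, and each replicate's set held it. At tba-4 (WBGene00006530, II, 10918706 to 10920211, plus strand) the nearest summit of the set was 14222 bp from the start.

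Entries below the threshold were also listed at these genes. The authors' ranked lists hold 40115 candidates in replicate 1 and 31379 in replicate 2, with median signals of 17.8 and 18.9. Of the 10 tubulin genes, 7 had a candidate in both lists, against 55.7% of all genes. In all 7, candidates overlapped between the replicates, against 41.9% of all genes, so a candidate alone is common. All 5 broadly used isotypes, tba-2 and tbb-1 with their sites included, had a candidate in replicate 1 and 4 had one in replicate 2. Of the neuronal isotypes, 4 had one in replicate 1 and 3 in replicate 2. Candidates in a single list are common too. Of the 8 tubulin genes without a site, 7 had a candidate in replicate 1 and 5 in replicate 2. Among the 17966 protein-coding genes without a site, 12550 had one in replicate 1 and 11071 in replicate 2.

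At tbb-2 the strongest candidates had signals of 36.3 in replicate 1 and 21.7 in replicate 2. The gene had 2 overlapping pairs. The pair with the higher scores lay 883 bp upstream in replicate 1 and 882 bp upstream in replicate 2, with signals of 27.4 and 19.5 and scores of 252 and 126. The authors also made 2 ranked lists from both replicates together, of 32380 and 43979 candidates. Both held a candidate 891 bp upstream of tbb-2 with a signal of 53.4. Its score was 637 in the shorter list and 71 in the longer one. The other pair lay 275 and 353 bp inside the gene, with signals of 23.5 in replicate 1 and 21.7 in replicate 2 and scores of 59 and 36. The score rises as the irreproducible discovery rate (IDR) falls, and no site of the thresholded sets scored below 830. At tba-1 the strongest candidates had signals of 24.3 in replicate 1 and 21.3 in replicate 2, both inside the gene, and the only overlapping pair, 339 and 409 bp upstream, had scores of 45 and 53. At tba-4 replicate 1 held 2 candidates, with signals of up to 23.2 and scores of up to 40, and replicate 2 held none.

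**Figure D3:**
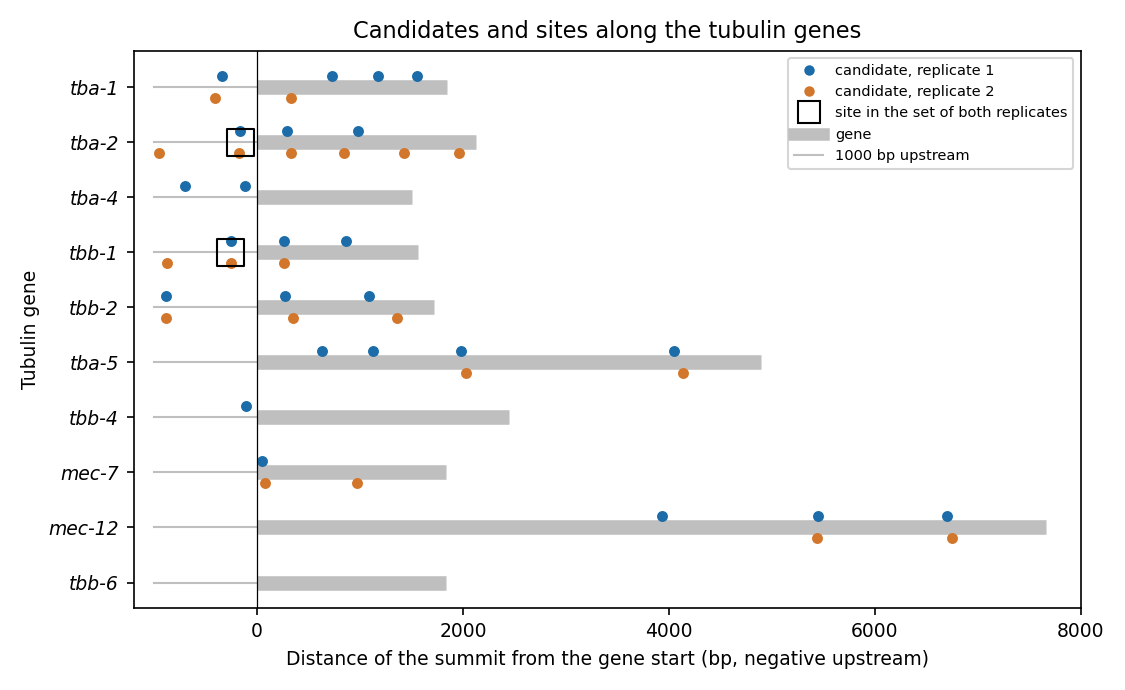
Summits of candidates along the 10 tubulin genes, as distance from the gene start in bp, with replicate 1 above each gene (blue) and replicate 2 below it (orange), and squares around sites of the set from both replicates. The squared summits lie 163 bp upstream of tba-2 and 257 bp upstream of tbb-1, and no neuronal isotype has a square.

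No neuronal isotype had a site. The genes tbb-4 (WBGene00006538, X, 9434452 to 9436893, minus strand) and mec-7 (WBGene00003171, X, 7774856 to 7776689, minus strand) are on X, where 1.5% of genes had a site, against 11.4% of autosomal genes. The other 2, tba-5 (WBGene00006531, I, 8353382 to 8358273, plus strand) and mec-12 (WBGene00003175, III, 3131574 to 3139234, minus strand), are autosomal. Since all 5 broadly used isotypes are autosomal, isotype class and chromosome class are partly confounded in this set of genes. Their part in the counts was not tested. The nearest summit of the set was 10851 bp from the start of mec-12, 16680 bp from tba-5, 41381 bp from tbb-4 and 436072 bp from mec-7. The median over all genes was 21578 bp, that over autosomal genes 17630 bp and that over X-linked genes 129700 bp.

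All candidates of the neuronal genes scored far below the 830 at which the thresholded sets begin. At mec-7, which encodes the beta-tubulin of touch receptor neurons, a candidate 45 bp inside the gene had a signal of 25.1 in replicate 1 and one 73 bp inside had a signal of 22.0 in replicate 2, with scores of 105 and 50. At mec-12, which encodes the partner alpha-tubulin, the stronger of 2 overlapping pairs lay 5448 and 5435 bp inside the gene, with signals of 25.3 in replicate 1 and 20.5 in replicate 2 and scores of 145 and 16. The other pair lay 6700 and 6751 bp inside the gene, with signals of 16.1 in replicate 1 and 15.6 in replicate 2 and scores of 14 and 16. At tba-5 the strongest candidates had signals of 15.7 in replicate 1 and 16.2 in replicate 2, below the median of each ranked list. At tbb-4 the only candidate lay 108 bp upstream in replicate 1, with a signal of 18.8 and a score of 61. Over the tubulin genes without a site, the median strongest signal was 24.3 in replicate 1 (7 genes) and 21.3 in replicate 2 (5 genes). Over all genes without a site it was 20.2 in replicate 1 (12550 genes, upper quartile 24.8) and 20.8 in replicate 2 (11071 genes, upper quartile 25.5), so both medians of the tubulin genes lay below the upper quartiles.

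The gene tbb-6 (WBGene00006539, V, 12261531 to 12263368, plus strand) had no site and no candidate in either replicate, and the nearest summit was 30252 bp away. It was the only member with no candidate at all. Many other genes lack a candidate in a list: of the 17966 genes without a site, 12550 had one in replicate 1 and 11071 in replicate 2. How many genes lack a candidate in both lists was not counted. The coding sequence of tbb-6 is the most distant of the beta-tubulin genes compared, 62.8% identical to that of tbb-1. Those of mec-7 and tbb-4 are 76.9% and 77.4% identical to tbb-1. A link between coding sequence and candidates was not tested.

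Tubulin genes are alike in their coding parts, and how the authors treated reads that match several places is not given in the sources used here. All 31-base words in the sites of tbb-1 and tba-2 occur once in the genome. The 1000 bp upstream of 9 of the 10 genes also hold only words that occur once, and the share is 97.1% at tba-4. Within the genes the share ran from 79.6% at tba-4 to 100%. In the ben-1 site it was 85%.

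Further tubulin genes were ben-1, tbg-1 and tba-6 to tba-9. Of these 6 genes, 2 (33.3%) had a site, ben-1 and tbg-1, and each replicate's set held both sites. The ben-1 site (III, 3541885 to 3542160) lay 384 bp upstream of the start with a signal of 112.0, and its signals were 47.5 in replicate 1 and 58.1 in replicate 2. The tbg-1 site (III, 9629894 to 9630169) lay 878 bp upstream of that gene, which encodes the gamma-tubulin that nucleates microtubules, with a signal of 93.4, and with 43.3 in replicate 1 and 43.7 in replicate 2. Its summit is nearer to rpac-19, a gene for an RNA polymerase subunit, at 147 bp. Both signals are below the median of 119.7 over all sites. The genes tba-6, tba-7, tba-8 and tba-9 had no site, and their nearest summits were 23842, 27499, 62836 and 216674 bp away. In all, 4 of 16 tubulin genes (25%) had a site, all of them autosomal, and 4 of the 16 are on X.

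Many sites in these windows lie nearer to a neighbouring gene. Of the 2007 genes with a site, 584 (29.1%) had only sites that lie nearer to the start of another protein-coding gene. Of the tubulin genes with a site, tbb-1 and tbg-1 were among these, and tba-2 and ben-1 were not.

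Genes that act on tubulin were also examined. Of 21 genes for tubulin folding, 9 (42.9%) had a site, with a median strongest signal of 174.7. Of 18 genes for microtubule dynamics and nucleation, 7 (38.9%) had a site, with a median of 288.0. Of 10 genes for enzymes that modify tubulin, such as mec-17, the alpha-tubulin acetyltransferase of touch receptor neurons, none had a site in the set of both replicates or in that of either replicate. The background is the 10% of all protein-coding genes given above, and the lists were not tested against it. The lists were chosen with earlier results of these data known, so their shares are descriptions only.

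**Figure D4:**
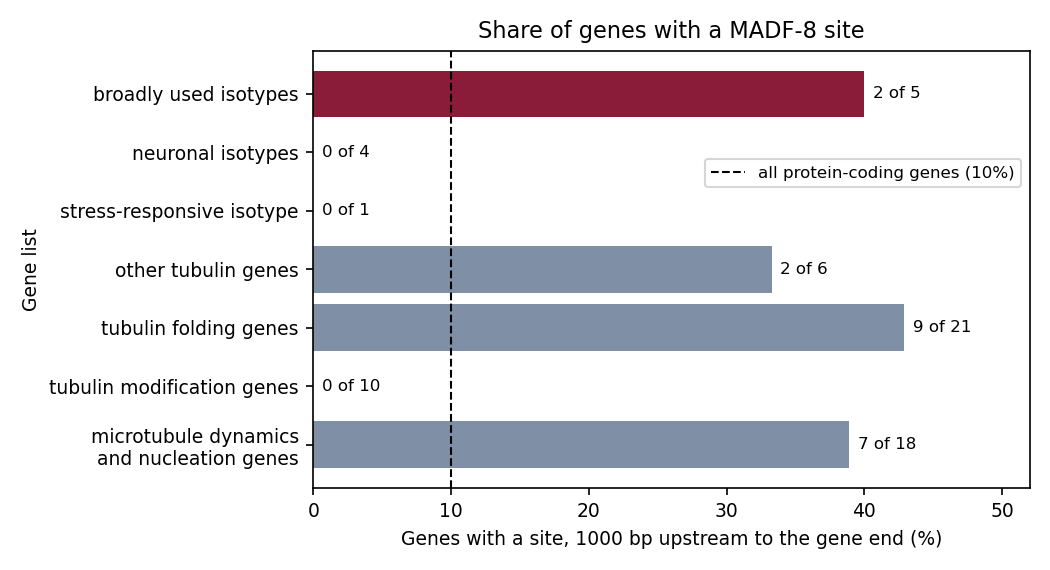
Percentage of genes with a site in the set from both replicates, from 1000 bp upstream to the gene end, for the isotype classes (dark red) and the lists of related genes (grey), with the count beside each bar and the 10% of all protein-coding genes as a dashed line. The broadly used isotypes, the other tubulin genes, the folding genes and the dynamics genes lie to the right of the line, while the neuronal isotypes, tbb-6 and the modification genes are at 0.

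Among the folding genes, the strongest site was that of cct-5, which encodes a subunit of the chaperonin that folds tubulin. Its signal was 758.9, with 315.2 in replicate 1 and 437.8 in replicate 2, and its summit lay 465 bp upstream, nearer to F25F2.1 at 276 bp. The cofactor genes tbcb-1 and tbcd-1, whose products bind folded alpha-tubulin and beta-tubulin, had sites of 376.3 at 435 bp upstream and 310.1 at 500 bp upstream, and in both cases the cofactor's own start was the nearest. The sites of cct-8 (352.8, at 447 bp) and cct-1 (174.7, at 258 bp) were nearer to other genes, Y55F3AR.2 and mig-5. Each replicate's set held these 5 sites. The other 4 sites of the list, with signals from 68.1 to 107.7, were at cct-2 and at the prefoldin genes pfd-1, pfd-3 and pfd-6. None was in the set of replicate 1, and the set of replicate 2 held the prefoldin sites but not the cct-2 site. Of these, the pfd-1 site, 326 bp upstream, is nearer to F01G4.6, at 283 bp.

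Among the genes of microtubule dynamics, klp-7 had the strongest site, with a signal of 961.1 (396 in replicate 1 and 572 in replicate 2). It encodes a kinesin that takes microtubules apart at their ends, and its site lay in an intron, 1493 bp downstream of the annotated start. The site of mei-2, for the regulatory subunit of the katanin that severs microtubules in the meiotic spindle, had a signal of 641.2 and lay 164 bp upstream, with the start of syp-6 nearer at 109 bp. The site of zyg-9, for a protein that promotes microtubule growth, had a signal of 292.8 at 935 bp upstream, and the start of F22B5.6 was nearer. The gene mzt-1, for a small partner of gamma-tubulin complexes, had sites of 288.0 and 226.4 at 528 and 941 bp upstream, both nearer to enu-3.3. The gene tac-1, for a partner of ZYG-9, had sites of 158.1 and 33.1 at 116 and 315 bp upstream. These 2 sites overlap, and each replicate's set held only 1 site at tac-1. The remaining 2 genes with a site, cls-2 and mei-1, had signals of 101.1 at 481 bp upstream and 98.6 at 858 bp upstream. The cls-2 site is nearest to its own start, while the mei-1 site is nearer to npp-2, at 376 bp. All 7 genes had a site in each replicate's set.

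Words of 8 bases that are common in MADF-8 sites were looked for in the tubulin sequences, on either strand. They were taken from 1042 promoter sites that are at none of the 16 tubulin genes, within 50 bp of the summit, and set against 17954 windows of the same length at promoters with no site. AAGGCGCA was in 11.5% of the site windows and 0.457% of the others. GCGAGACC was in 10.4% and 0.29%. GCCTTTAA was in 10.1% and 0.574%, and on its other strand it ends in AAGGC, the letters with which AAGGCGCA begins. None of these words is in the sites of tbb-1, tba-2, ben-1 or tbg-1, while 24.4% of all sites hold at least 1 of them. In the 1000 bp upstream of the start, 10% of all promoters hold at least 1 of them, with 4.92%, 3.86% and 5.73% for the words in the order given. Of the 10 tubulin genes only tba-2 does, with GCGAGACC 747 bp upstream of the start, outside its site. Around the tba-2 summit there were 4 CG pairs in 101 bp and 42.6% G or C, and 74.7% of sites held more CG pairs.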

How the data were processed

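MADF-8 ChIP-seq lists of 2 replicates, 1 group by the sample labels, were read as deposited. Per the labels' file notes, the authors made each list with a control file on assembly ce11, either from 1 replicate or from the alignments of the pair. Which aligner, peak caller and signal scaling they used is not given in the sources used here. Each site's deposited score is a scaled IDR score within its list (830 or more in thresholded sets). The authors' signal, 1 value for each site with no error, was compared within a list only. The summit is the site's deposited offset from its start. Another 16 columns, which carry no sample name, were not used.

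Genes came from Ensembl release 115 (WBcel235), with chromosome lengths checked against the reference genome. All 10 tubulin genes are named, all 6 further tubulin genes, and of each related list the genes with a site, with values for the strongest 5. Of 11 modification symbols, ttll-8 had no match. Nearer starts are named beside a site. The members and lists were chosen with earlier results of these data known. With 1 group no test was made. Words were ranked by their excess share, leaving out any that share 6 bases in a row with a word taken. Linking of sites and finding of words were checked on simulated data. Alternatives were other sets, windows, links and backgrounds. Python 3.11.15, numpy 2.4.6, pandas 2.3.3, Biopython 1.88 and matplotlib 3.10.9 were used.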

Additional observations from a re-analysis of the deposited data

How the results depend on the processing

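The 0 of 4 neuronal isotypes with a site was the same under all 10 alternatives. The stricter ones (higher signal, a score of 1000, the 500 bp windows and nearest start) only remove sites. They could therefore not change a count of 0. The count of 2 genes with a site, both broadly used, was labelled unchanged under 8 of 10, taking a change of up to 1.5 times as no change. With 2000 bp upstream, 4 genes had a site, tba-1 and tbb-2 being added, all of them broadly used. With each site given only to the nearest start, 1 gene did, the broadly used tba-2, since the tbb-1 site is nearer to rib-2. Counting any overlap with the window gave 3 genes, with tba-1 added, and is among the 8 labelled unchanged. The percentage of all genes with a site, 10% as reported, was 8.72% without replicate 1 and 7.36% without replicate 2. It was 5.76% with signals at or above the median, 9.2% with a score of 1000, 6.51% from 500 bp upstream to 100 bp downstream and 8.49% from 500 bp upstream to the gene end. It was 12% from 2000 bp upstream, 10.8% with any overlap, 7.12% by nearest start, 11.4% on autosomes, 1.5% on X and 10.6% among genes of the members' lengths. No paired analysis was possible because there is 1 group. Depth is unknown, so a gene without a site is one without a site in these lists.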
